A study of Drosophila melanogaster with 12 samples.

Results

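The genes described here act in the female's response to mating and in egg release: SPR, dsx, fru, ppk, Mmp2, Oamb, Tdc2 and Tbh, 8 genes in all. They were chosen by symbol. A gene was measured where a probe set of the array had that symbol, and no other, in the platform annotation, and where several did, the probe set with the highest mean over all arrays stood for the gene. Of the 8 genes, 7 were measured in this way, out of 11982 genes with such a probe set. Oamb had no probe set under its symbol and was not analysed here. The 7 measured genes had 16 probe sets together.

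Sex peptide is a seminal fluid peptide that the male transfers with sperm. It acts through the sex peptide receptor, SPR, on sensory neurons of the female reproductive tract that express the channel subunit gene ppk and the sex-determination genes fru and dsx, and the female then refuses courtship and lays more eggs. Egg release itself depends on octopamine, an amine that neurons make from tyrosine by way of tyramine, with the decarboxylase Tdc2 and the hydroxylase Tbh. Octopamine acts on the oviduct and on mature follicles through the receptor Oamb, and in the follicle the matrix metalloproteinase Mmp2 breaks down the posterior follicle cells so that the egg can leave.

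RNA was taken from whole adult females of the outbred LHM population and hybridised to Affymetrix Drosophila Genome 2.0 arrays. There were 12 arrays, each with RNA from 8 pooled flies in an extraction of its own. Females of all groups were taken as virgins on day 9 and got a vial with 0.375 mg of live yeast on day 12. Virgin females (4 arrays) never met a male, double mated females (4 arrays) mated on days 12 and 13, and single mated females (4 arrays) mated once. The day of that mating is taken to be day 13, because these females were without males on day 12. The mates were tester males from a cross of inbred lines derived from LHM, and they were not virgins. Mated females were frozen 6 hours after mating, counted from the mating of day 13 in the double mated group. That group had its first mating on day 12, earlier than the single mated group. Between the mated groups, the number of matings and the time since the first mating therefore differed together. Which of them went with a difference between these groups was not tested, and phrases that count matings only name the groups. The labels call the population wild type and name no transgene or mutation. In a whole-body extract a change in the number of cells that express a gene cannot be told apart from a change in RNA per cell, and the tissue of a change is not seen.

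Values are the deposited log2 expression values, 1 per probe set and array, so a difference of 1 is a doubling. Precision is set by the number of arrays, since such values have no count behind them. Replicate 4 of the double mated group stood away from its fellow arrays, with an SD over probe sets of 0.245 for its difference from the rest of the group, against at most 0.185 for the other arrays. The sex of the flies was checked against marker genes. The yolk proteins Yp1, Yp2 and Yp3 and the vitelline membrane genes measured between 12.93 and 15.19 on every array, while 10 male accessory gland genes stayed between 3.24 and 5.45 and 9 testis genes between 3.10 and 6.47. The top of the male gland range came from Acp62F, and the next highest gene, Mst57Dc, reached 4.50. In limma 0 male gland genes were called against virgins, with 2 after 1 mating and 1 after 2 at an unadjusted p under 0.05, and 0 testis genes, with 0 and 0 at an unadjusted p under 0.05. Of 5 measured muscle markers, 3 were called higher in both mated groups against virgins. For comparison, 4.49% of all probe sets were called higher after 1 mating and 12.3% after 2 (9.66% and 28.1% in either direction). The summed muscle level ran from 12.68 to 13.26 in virgin, 13.24 to 13.65 in single mated and 13.27 to 13.54 in double mated females. Of 6 neuronal markers, 1 was called higher after 1 mating and 2 after 2 matings, and the summed level was 9.52 to 9.68, 9.72 to 9.83 and 9.78 to 10.07 in the same order of groups. Sums were taken on unlogged values, so the brightest gene, Snap25, with group means of 8.52, 8.80 and 9.07, weighed most in the neuronal sum. Of 7 monoaminergic and cholinergic markers, 1 was called higher after 1 mating and 2 after 2, with summed levels of 9.12 to 9.28, 9.21 to 9.24 and 9.25 to 9.46. The called genes were the cholinergic VAChT and ChAT, while the monoaminergic Vmat, ple, Ddc, DAT and SerT were called in no comparison. Of 7 eggshell genes of mature follicle cells, 0 were called in limma in any comparison, with 0 after 1 mating and 3 after 2 at an unadjusted p under 0.05 against virgins.

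**Figure D1:**
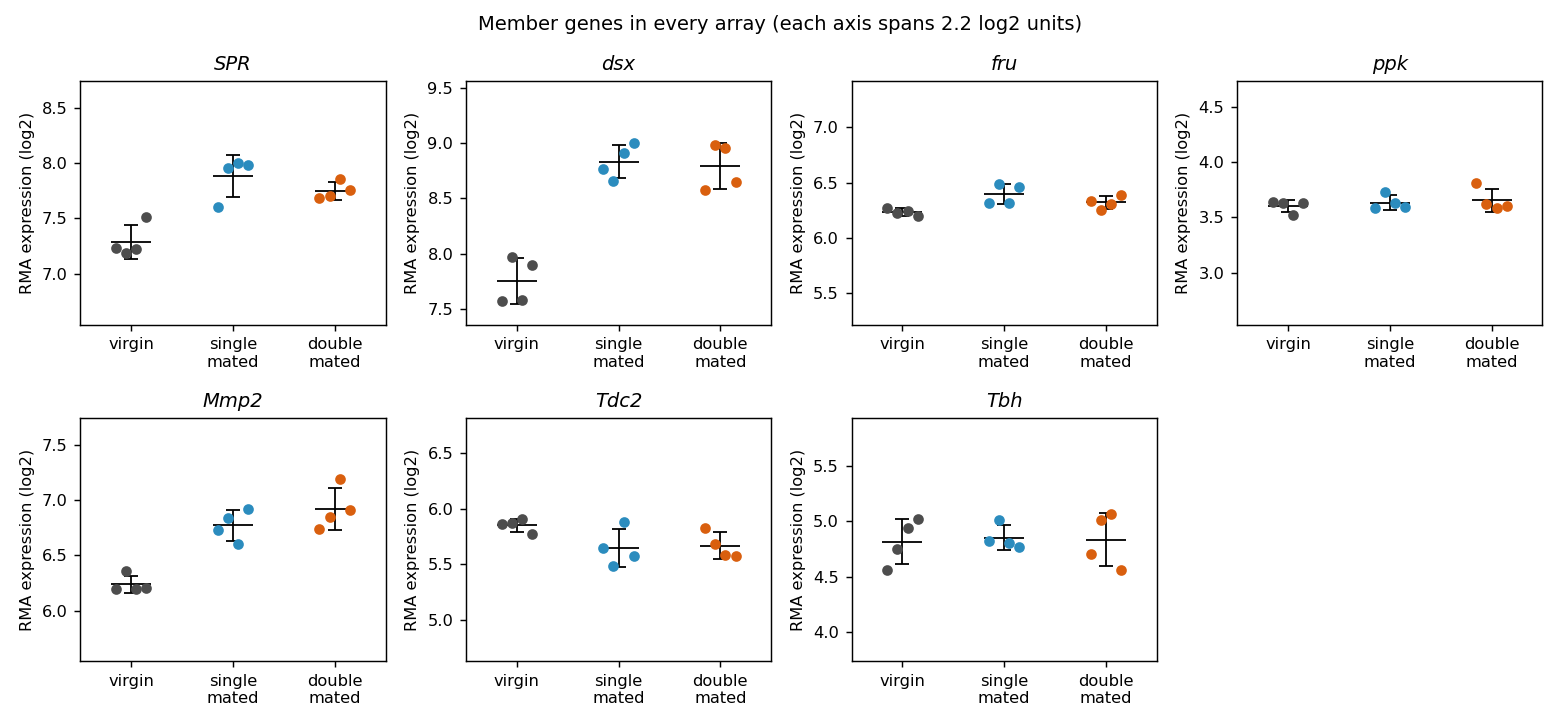
Log2 expression of the 7 measured genes on every array, 1 panel a gene. Points are arrays, long bars are group means and whiskers are the SD of 4 arrays. For SPR, dsx and Mmp2 every mated array lay above every virgin array, while the groups overlapped for ppk, Tdc2 and Tbh.

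Mated females were set against virgins to show which steps of the sex peptide and ovulation pathways differed in transcript level. SPR, dsx and Mmp2 were higher in both mated groups, dsx by about 1 on the log2 scale and the others by 0.46 to 0.68. The representative probe sets of the other measured genes, fru, ppk, Tdc2 and Tbh, passed the test in neither group. A further probe set of fru, described below, was called higher in both. A probe set was called at an adjusted p under 0.05 in limma, with Benjamini-Hochberg adjustment over 18769 probe sets. Against virgins, 3 of 7 genes were called higher in single mated females, where 4.49% of all probe sets were called higher, 5.17% lower and 9.66% in either direction. In double mated females 3 of 7 were called higher, against 12.3% of all probe sets called higher, 15.7% lower and 28.1% in either direction. Between the mated groups 0 of 7 genes were called in limma, 0 had an unadjusted p under 0.05, and 5.29% of all probe sets were called (3.55% higher and 1.74% lower in double mated females). In the F test over the 3 groups 3 of 7 genes were called, against 24.9% of all probe sets. The counts against virgins rest on the same 4 virgin arrays and are not separate evidence. The genes were picked with earlier results of these data known, so the counts describe them and do not single them out.

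SPR, the G protein-coupled receptor for sex peptide, measured 7.23, 7.19, 7.22 and 7.52 in virgin replicates 1 to 4. Single mated replicates measured 7.60, 7.95, 8.00 and 7.99, and double mated replicates 7.68, 7.70, 7.85 and 7.75. The lowest mated array lay just above the highest virgin array, and both of these stood away from their own groups, single mated replicate 1 toward low and virgin replicate 4 toward high values. The group values were 7.29 ± 0.15, 7.88 ± 0.19 and 7.75 ± 0.08 (SD, n = 4). SPR rose 1.51-fold in single mated females (95% interval 1.31 to 1.74, adjusted p = 0.00203 in limma) and 1.37-fold in double mated females (1.19 to 1.58, adjusted p = 0.00222 in limma). The mated groups overlapped, and double mated females measured 0.909 of the single mated level (0.789 to 1.05, adjusted p = 0.437 in limma).

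The transcription factor gene dsx, whose transcript is spliced differently in the sexes and whose female protein directs female differentiation, had the largest change of the 7 genes. It measured 7.57, 7.97, 7.58 and 7.90 in virgin, 8.77, 8.66, 8.91 and 9.00 in single mated and 8.58, 8.98, 8.95 and 8.65 in double mated replicates 1 to 4. Every mated array lay well above the highest virgin array, and the mated groups covered nearly one range. Group values were 7.76 ± 0.21, 8.83 ± 0.15 and 8.79 ± 0.21 (SD, n = 4). The level was 2.11-fold that of virgins after 1 mating (1.77 to 2.51, adjusted p = 0.000173 in limma) and 2.05-fold after 2 (1.72 to 2.44, adjusted p = 2.98e-05 in limma). Double mated females measured 0.971 of the single mated level, with an interval of 0.816 to 1.16 that leaves room for a difference in either direction (adjusted p = 0.871 in limma).

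The fru gene encodes a family of zinc-finger proteins, of which the male-specific forms control courtship, while other transcripts are made in both sexes. Its representative probe set measured 6.27, 6.23, 6.24 and 6.20 in virgin, 6.32, 6.49, 6.32 and 6.46 in single mated and 6.33, 6.25, 6.31 and 6.39 in double mated replicates 1 to 4. All single mated arrays lay above all virgin arrays, by a margin that was small beside the spread among them. The group values were 6.24 ± 0.03, 6.40 ± 0.09 and 6.32 ± 0.06 (SD, n = 4). The differences from virgin were 0.16 (SE 0.06, adjusted p = 0.103 in limma) after 1 mating and 0.09 (SE 0.06, adjusted p = 0.325) after 2. The first of these passed when only probe sets above the median level were tested (adjusted p = 0.0437), a setting in which fewer tests were made. Counting fru, groups did not overlap for 4 of 7 genes in single mated against virgin females, where this held for 20.8% of all probe sets (8.28% with the mated group higher). The same held for 3 of 7 in double mated against virgin females, where the share was 27.9% (11.6% higher), and for 0 of 7 between the mated groups, where it was 11.0% (5.63% higher in double mated females).

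The ppk gene encodes a subunit of a DEG/ENaC sodium channel and marks the sensory neurons on which sex peptide acts. It measured 3.64, 3.63, 3.52 and 3.63 in virgin, 3.58, 3.73, 3.63 and 3.59 in single mated and 3.81, 3.62, 3.58 and 3.61 in double mated replicates 1 to 4. The groups overlapped, and 1 double mated array stood above the rest. Differences from virgin were 0.03 (interval -0.11 to 0.17) after 1 mating and 0.05 (-0.09 to 0.19) after 2, with adjusted p = 0.828 and adjusted p = 0.636 in limma. The intervals allow a change of up to 1.12-fold and 1.14-fold in the measured signal. The deposited values hold no detection calls, so it was not tested whether the ppk probe set was above background in whole females.

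Of the octopamine enzymes, Tdc2, the neuronal tyrosine decarboxylase that makes tyramine, measured 5.86, 5.87, 5.91 and 5.77 in virgin replicates 1 to 4. It measured 5.65, 5.49, 5.88 and 5.57 in single mated and 5.83, 5.68, 5.58 and 5.57 in double mated replicates. Most mated arrays were lower than the virgin arrays, but 1 array of each mated group lay within the virgin range. The differences from virgin were -0.20 (SE 0.08, unadjusted p = 0.0302, adjusted p = 0.149 in limma) and -0.19 (SE 0.08, unadjusted p = 0.0447, adjusted p = 0.125 in limma). The single mated difference passed without single mated replicate 3, the array in the virgin range (-0.28, adjusted p = 0.0404), and the double mated difference passed once arrays were centred on their medians (-0.25, adjusted p = 0.0372). Tdc2 is therefore reported as not called, with mated levels of 0.868 (0.765 to 0.984) and 0.879 (0.775 to 0.996) of the virgin level.

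Tbh, the tyramine beta-hydroxylase that completes octopamine synthesis, measured 4.56, 4.75, 4.94 and 5.02 in virgin replicates 1 to 4. It measured 4.83, 5.02, 4.81 and 4.77 in single mated and 4.70, 5.01, 5.06 and 4.57 in double mated replicates. The groups lay on top of each other, and the virgin and double mated arrays were spread more widely than the single mated ones. Group values were 4.82 ± 0.20, 4.86 ± 0.11 and 4.84 ± 0.24 (SD, n = 4). These means also lay within the range of the male gland genes, 3.24 to 5.45. Whether the Tbh probe set could follow a change at that level was not tested. Single mated females measured 1.03 of the virgin level (0.861 to 1.22, adjusted p = 0.891 in limma) and double mated females 1.01 (0.849 to 1.21, adjusted p = 0.941 in limma).

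Mmp2, the protease that acts at follicle rupture and in tissue remodelling elsewhere, measured 6.20, 6.35, 6.19 and 6.20 in virgin replicates 1 to 4. It measured 6.73, 6.84, 6.60 and 6.92 in single mated and 6.73, 6.85, 7.19 and 6.91 in double mated replicates. Every mated array lay above every virgin array, and double mated replicate 3 was the highest of all. The group values were 6.24 ± 0.08, 6.77 ± 0.14 and 6.92 ± 0.19 (SD, n = 4). Mmp2 rose 1.45-fold after 1 mating (1.26 to 1.66, adjusted p = 0.00336 in limma) and 1.60-fold after 2 (1.40 to 1.84, adjusted p = 0.000106 in limma). The ratio of double to single mated females was 1.11 (0.965 to 1.27, adjusted p = 0.382 in limma). Of the markers given above, the muscle genes Act87E, bt and Prm, the synaptic gene Snap25, the acetylcholine transporter gene VAChT and the yolk protein gene Yp2 were called higher in both mated groups, as SPR, dsx and Mmp2 were. The vitelline membrane genes Vm26Aa and Vm34Ca, the calcium channel gene cac and ChAT, the enzyme gene for acetylcholine synthesis, were called higher in double mated females against virgins. Of the same lists, elav, nSyb, brp, para, Act88F, up, Vmat, ple, Ddc, DAT, SerT, Yp1 and Yp3 were called in no comparison. The part of the markers in these results was not tested.

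**Figure D2:**
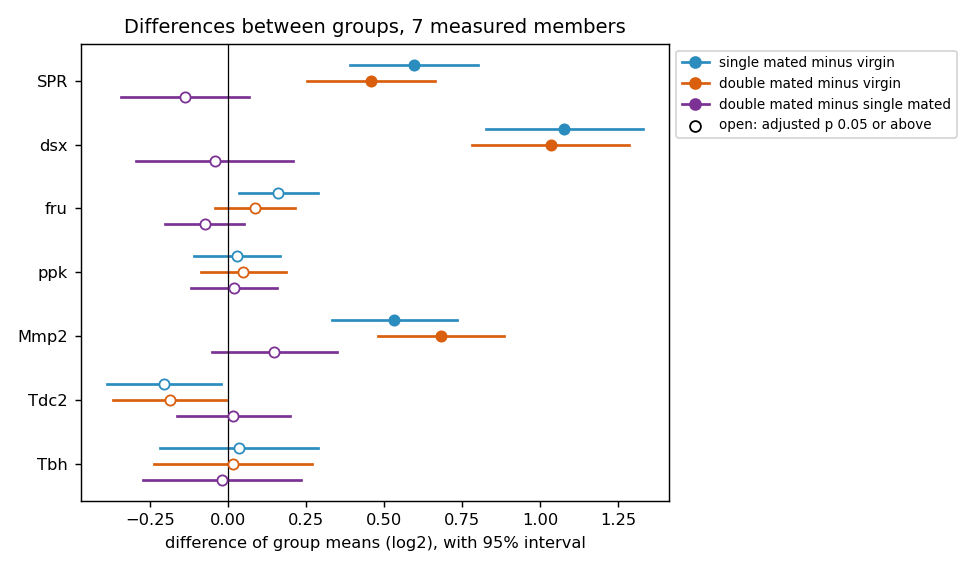
Differences of group means on the log2 scale for the 7 measured genes, with 95% intervals from limma over 12 arrays. Filled points passed an adjusted p of 0.05. SPR, dsx and Mmp2 lie to the right of 0 in both comparisons with virgins, and all 7 intervals of double mated minus single mated females include 0.

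Within the groups the 3 genes that rose did not track each other closely. With group means removed, the correlation over 12 arrays was 0.34 for SPR with dsx, 0.22 for SPR with Mmp2 and 0.44 for dsx with Mmp2. These are descriptions over arrays that each held different flies. Before the group means were removed the values were 0.88, 0.79 and 0.90, which mostly restates that the 3 genes differed between the same groups.

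The probe sets of 1 gene did not always move together. SPR, dsx and Mmp2 had 2 probe sets each and fru had 7. Of the 16 probe sets, 4 were called higher and 1 lower after 1 mating, 5 higher and 1 lower after 2 matings, and 0 between the mated groups, where 1 had an unadjusted p under 0.05. Over all probe sets the shares called were 4.49% higher and 5.17% lower after 1 mating and 12.3% higher and 15.7% lower after 2. The representative probe set of SPR, 1623478_at, rose as given above, while the other, 1634888_at, measured 3.84 ± 0.17 in virgin, 3.79 ± 0.09 after 1 mating and 3.57 ± 0.08 after 2 (SD, n = 4). In double mated females 1634888_at fell by 0.27 against virgins (SE 0.08, adjusted p = 0.0232 in limma). That call ended without virgin replicate 1 or 2 or double mated replicate 2 or 3 (adjusted p = 0.0512 to 0.0791).

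For dsx, the representative 1623776_s_at carries a suffix that Affymetrix gives to probe sets that can match transcripts of more than 1 gene, although the annotation names dsx alone. The other, 1640799_at, measured 4.41 ± 0.14, 4.63 ± 0.05 and 4.64 ± 0.07 in virgin, single mated and double mated females (SD, n = 4). Its differences from virgin had the same direction but were smaller, at 0.22 (adjusted p = 0.0688 in limma) and 0.23 (adjusted p = 0.0287 in limma). The call after 2 matings ended without virgin replicate 1 or 2 or double mated replicate 1 or 4 (adjusted p = 0.0517 to 0.0919), within the 8 arrays compared (0.0568) and with centred arrays (0.121). Which exons each probe set covers is not given in the sources used here, so nothing is said about female or male transcripts of dsx. Probe sets of Act87E, Sxl, tra2, Hr39, Ogdh, su(r) and Rh7, genes also named here, carry the same suffix as 1623776_s_at.

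For Mmp2, the other probe set, 1637726_at, measured 3.69 ± 0.09, 3.64 ± 0.04 and 3.60 ± 0.06 (SD, n = 4) and was not called in either mated group (adjusted p = 0.715 and adjusted p = 0.298 in limma). Against virgins, the representative changed by 0.65 and 0.73 more than the other for SPR, 0.86 and 0.81 for dsx and 0.58 and 0.77 for Mmp2, in single and double mated females. These differences were computed after the values were seen and are given without a test. The group means of all 3 of the other probe sets lay within the range of the male gland genes, 3.24 to 5.45, and whether probe sets at that level could follow a change was not tested. With the mean over all probe sets in place of the representative, SPR changed by 0.27 after 1 mating (adjusted p = 0.0235 in limma) and 0.09 after 2 (adjusted p = 0.371), so the call for double mated females ended. For dsx the same setting gave 0.65 and 0.63, and for Mmp2 0.24 and 0.29, all 4 still called.

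The 7 probe sets of fru covered a wider range of changes than its representative. One of them, 1631498_a_at, measured 5.59 ± 0.15, 6.01 ± 0.07 and 6.19 ± 0.24 in virgin, single mated and double mated females (SD, n = 4). It rose by 0.41 after 1 mating (SE 0.10, adjusted p = 0.024 in limma) and by 0.60 after 2 (SE 0.10, adjusted p = 0.00064 in limma). The first call ended without virgin replicate 2 or 3 or single mated replicate 2 or 4 (adjusted p = 0.0628 to 0.0787) and with the replicate number as a block (0.0549). In the opposite direction, 1641338_at measured 3.75 ± 0.10, 3.51 ± 0.09 and 3.57 ± 0.07 and fell by 0.24 after 1 mating (SE 0.07, adjusted p = 0.0431 in limma). That call ended without any 1 of the 4 virgin or 4 single mated arrays, or without double mated replicate 1 or 2 (adjusted p = 0.0533 to 0.12). The group means of 1641338_at also lay within the range of the male gland genes, 3.24 to 5.45, and whether it was above background was not tested. The other 5 probe sets of fru were called in neither comparison with virgins. The probe sets 1631498_a_at and 1641338_at were singled out after their values were seen, and fru is a gene with many promoters and splice forms, so a change of 1 probe set is not a change of all its transcripts.

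**Figure D3:**
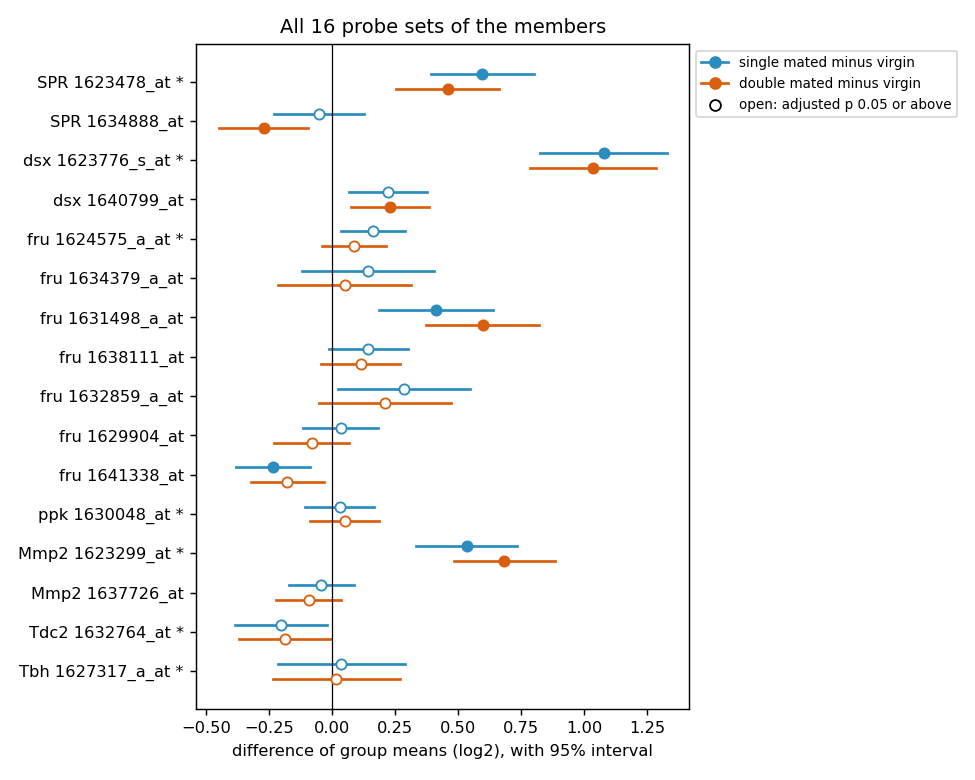
Differences from virgin on the log2 scale for all 16 probe sets of the 7 genes, with 95% intervals from limma over 12 arrays, where filled points passed an adjusted p of 0.05 and an asterisk marks the representative. For SPR the probe sets point in opposite directions, and for fru 1 of 7 rose in both mated groups.

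Around these genes, 6 lists of related genes were counted in the same way. The lists too were chosen with earlier results of these data known, so their counts describe the listed genes and do not single out a pathway. Against virgins the median change over all 18769 probe sets was 0.00119 after 1 mating and -0.0195 after 2, and -0.0292 between the mated groups, and the share called in each is given above.

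Of 11 measured octopamine and tyramine genes for synthesis, vesicle loading and receptors, out of 12 in the list, 1 was called higher after 1 mating and 2 after 2, with none lower, and medians of 0.07 and 0.02. The shares over all probe sets were 4.49% and 12.3% higher, and 9.66% and 28.1% in either direction. The increase in both groups was in Tdc1, the tyrosine decarboxylase found mainly outside the nervous system. Tdc1 measured 6.16, 6.15, 6.39 and 6.37 in virgin, 6.86, 6.50, 6.69 and 6.97 in single mated and 6.89, 6.94, 7.12 and 6.94 in double mated replicates 1 to 4, with no overlap between virgin and mated arrays. It rose by 0.49 (SE 0.10, adjusted p = 0.00743 in limma) and 0.70 (SE 0.10, adjusted p = 0.000116 in limma). Oct-TyrR, a receptor for both amines, was the other gene called in double mated females and was named after its values were seen. It rose by 0.18 (adjusted p = 0.0471), and the call ended without 9 of the 12 arrays in turn, which were the 4 virgin arrays, single mated replicates 1 and 2 and double mated replicates 1, 2 and 3 (adjusted p = 0.0537 to 0.133), with the replicate number as a block (0.0677) and with centred arrays (0.24). The octopamine receptors Octalpha2R, Octbeta1R, Octbeta2R and Octbeta3R and the vesicular transporter Vmat were called in no comparison. Octbeta2R, which is known to act in the oviduct, changed by 0.08 (adjusted p = 0.592) and 0.02 (adjusted p = 0.889). The group means of these octopamine receptors and of Oct-TyrR lay within the range of the male gland genes, 3.24 to 5.45. Whether probe sets at that level could follow a change was not tested.

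The decarboxylases Tdc1 and Tdc2 were set side by side after their values were seen. The log2 difference Tdc1 minus Tdc2 was 0.28 to 0.60 on virgin, 0.81 to 1.40 on single mated and 1.06 to 1.54 on double mated arrays. On every mated array this difference was larger than on every virgin array, so the change of Tdc1 exceeded that of Tdc2 by 0.69 after 1 mating and 0.89 after 2, which is given without a test.

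**Figure D4:**
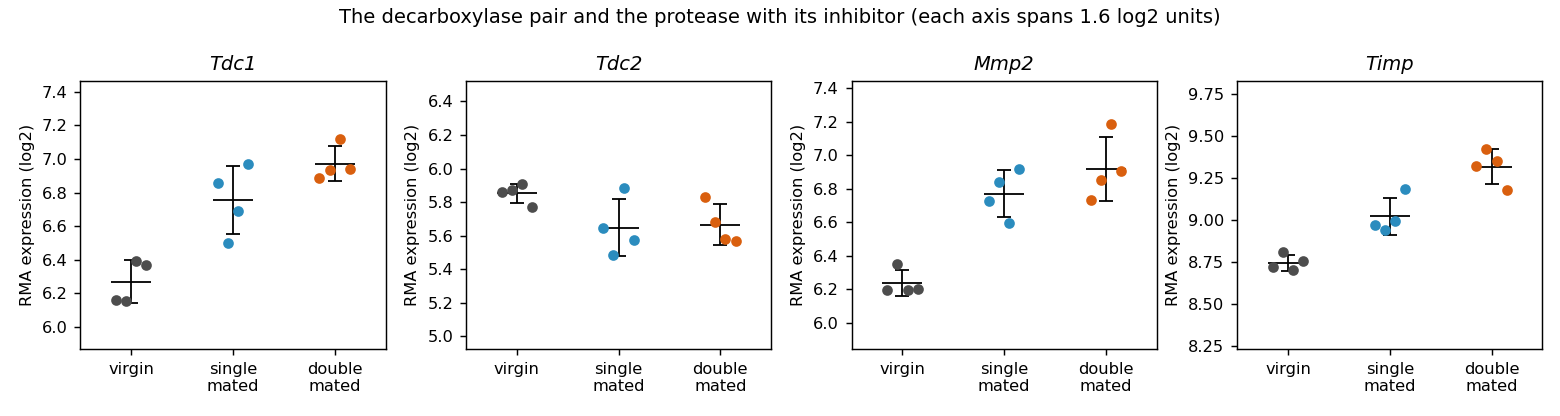
Log2 expression of Tdc1, Tdc2, Mmp2 and its inhibitor gene Timp on every array. Points are arrays, long bars are group means and whiskers are the SD of 4 arrays. Tdc1, Mmp2 and Timp lay higher on all mated than on all virgin arrays, and the Tdc2 groups overlapped.

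Among genes of follicle rupture and matrix breakdown, of 8 measured genes out of 12, 3 were called higher after 1 mating, and 5 higher and 1 lower after 2, with medians of 0.29 and 0.56. Mmp2 is 1 of those genes. The shares over all probe sets were 4.49% higher after 1 mating, and 12.3% higher and 15.7% lower after 2. Timp, the inhibitor of matrix metalloproteinases, measured 8.74 ± 0.05, 9.02 ± 0.11 and 9.32 ± 0.10 in virgin, single mated and double mated females (SD, n = 4). It rose by 0.28 after 1 mating (SE 0.07, adjusted p = 0.0224 in limma), by 0.57 after 2 (SE 0.07, adjusted p = 4.44e-05 in limma), and by 0.30 from single to double mated females (adjusted p = 0.0241 in limma). The call after 1 mating ended without virgin replicate 1 or 3 or single mated replicate 4 (adjusted p = 0.0606 to 0.0765) and with the replicate block (0.0556). The call between the mated groups ended without replicate 1, 2 or 3 of either mated group (0.0506 to 0.0797), with the replicate block (0.0648) and within the 8 arrays compared (0.0748). Mmp2 changed by 0.26 more than Timp after 1 mating and by 0.11 more after 2, both given without a test since the pair was picked after its values were seen. On this difference the single mated arrays lay above all virgin arrays, and the double mated arrays overlapped with them.

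The neprilysin family peptidase gene Nep2 rose by 0.83 (SE 0.14, adjusted p = 0.00305 in limma) and 0.93 (SE 0.14, adjusted p = 0.00024 in limma). The zinc-finger gene peb, which acts in maturing follicle cells, differed from virgin by 0.30 after 1 mating (adjusted p = 0.0519) and rose by 0.55 after 2 (SE 0.09, adjusted p = 0.000444 in limma). The other gene higher in double mated females was Eip93F, an ecdysone-induced transcription factor, at 0.88 (adjusted p = 0.000697), and the lower one was the nuclear receptor gene Hr39, at -0.36 (adjusted p = 0.0106). These were named after their values were seen, and the call of Hr39 ended with the mean over its probe sets (-0.10, adjusted p = 0.401).

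In the sex-determination list, of 14 measured genes out of 15, 1 was called higher and 1 lower after 1 mating, and 1 higher and 2 lower after 2, with medians of -0.01 and -0.08. Among all probe sets, 4.49% were called higher and 5.17% lower after 1 mating, and 12.3% higher and 15.7% lower after 2. The higher gene of the list in both groups was dsx. The lower gene in both groups was ix, which encodes a partner that the female dsx protein needs. It measured 8.95, 8.96, 9.01 and 8.91 in virgin, 8.68, 8.57, 8.66 and 8.45 in single mated and 8.53, 8.47, 8.32 and 8.42 in double mated replicates 1 to 4, with every mated array below every virgin array. It fell by 0.37 (SE 0.07, adjusted p = 0.00386 in limma) and by 0.53 (SE 0.07, adjusted p = 5.59e-05 in limma). The splicing regulator tra2, named after its values were seen, fell by 0.20 after 2 matings (adjusted p = 0.033). That call ended without virgin replicate 1, 3 or 4 or double mated replicate 1, 2 or 3 (adjusted p = 0.0627 to 0.09), with the replicate block (0.0568) and under cyclic loess (0.229). The upstream genes Sxl and tra were called in no comparison.

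Of 6 genes known from fly work as direct targets of dsx, 1 was called higher after 1 mating and 3 after 2, with none lower and medians of 0.18 and 0.27. The shares of all probe sets called higher were 4.49% and 12.3%. The yolk protein gene Yp2 rose by 0.22 (adjusted p = 0.0287 in limma) and 0.27 (adjusted p = 0.00232 in limma). Its call after 1 mating ended without virgin replicate 1, 3 or 4 or single mated replicate 2, 3 or 4 (0.0538 to 0.102), with the replicate block (0.0638) and with centred arrays (0.096). The abdominal patterning gene bab2 differed by 0.17 after 1 mating (adjusted p = 0.173) and rose by 0.47 after 2 (adjusted p = 0.000302 in limma), and by 0.30 from single to double mated females (adjusted p = 0.0311 in limma). The last of these calls ended without single mated replicate 1, 2 or 3 or double mated replicate 2 or 3 (0.0656 to 0.0868), with the replicate block (0.0614) and within the 8 arrays compared (0.0631). The related bab1, named after its values were seen, rose by 0.27 after 2 matings (adjusted p = 0.024), a call that ended without virgin replicate 1 or 3 or double mated replicate 2 (0.0538 to 0.0728) and with centred arrays (0.0625).

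Of 14 measured genes of sex peptide and receptivity signalling, out of 16, 2 were called higher and 1 lower in each mated group against virgins, with medians of 0.06 and 0.10. Shares called over all probe sets were 4.49% higher and 5.17% lower after 1 mating, and 12.3% higher and 15.7% lower after 2. SPR was 1 of the 2 listed genes that rose. The other, hdly, is a gene needed in females for the long-term response to sex peptide. It measured 8.17, 8.17, 8.13 and 8.18 in virgin, 8.60, 8.66, 8.73 and 9.00 in single mated and 8.65, 8.78, 8.79 and 8.49 in double mated replicates 1 to 4. The virgin arrays were nearly identical and every mated array lay above them. The increases were 0.58 (SE 0.09, adjusted p = 0.00133 in limma) and 0.51 (SE 0.09, adjusted p = 0.000495 in limma). Esp, also needed in females for that response, differed between the mated groups, where double mated females were higher by 0.31 (adjusted p = 0.0474 in limma), and the call ended without 9 of the 12 arrays in turn, which left only single mated replicate 1 and double mated replicates 2 and 4 without effect (0.0546 to 0.126), with centred arrays (0.0682) and within the 8 arrays compared (0.105). The gene that fell was Ilp7, an insulin-like peptide gene of neurons that reach the reproductive tract, at -0.99 (SE 0.16, adjusted p = 0.00234 in limma) and -1.11 (SE 0.16, adjusted p = 0.000169 in limma). The gene for Mip, a further ligand of SPR, changed by 0.09 (adjusted p = 0.585) and 0.13 (adjusted p = 0.371).

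Of 29 measured DEG/ENaC channel genes, the family of ppk, out of 31, 0 were called in limma after 1 mating (1 at an unadjusted p under 0.05), and 0 were called higher and 2 lower after 2, with medians of 0.00 and -0.02. Among all probe sets, 9.66% were called after 1 mating, and 12.3% were called higher and 15.7% lower after 2. The family genes called lower were ppk30, at -0.24 (adjusted p = 0.0206), and rpk, named after its values were seen, at -0.22 (adjusted p = 0.0388). The ppk30 call ended without virgin replicate 2 or 4 or double mated replicate 3 (0.0504 to 0.0678). The rpk call ended without virgin replicate 1, 3 or 4, single mated replicate 2 or double mated replicate 1, 2 or 3 (0.0505 to 0.104), with the replicate block (0.0618) and under cyclic loess (0.182). The family members ppk23, ppk25 and ppk29, known from pheromone-sensing neurons, were called in no comparison. All family genes but ppk3, ppk18, ppk29, ppk31 and rpk had group means within the range of the male gland genes, 3.24 to 5.45. Whether probe sets at that level could follow a change was not tested.

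**Figure D5:**
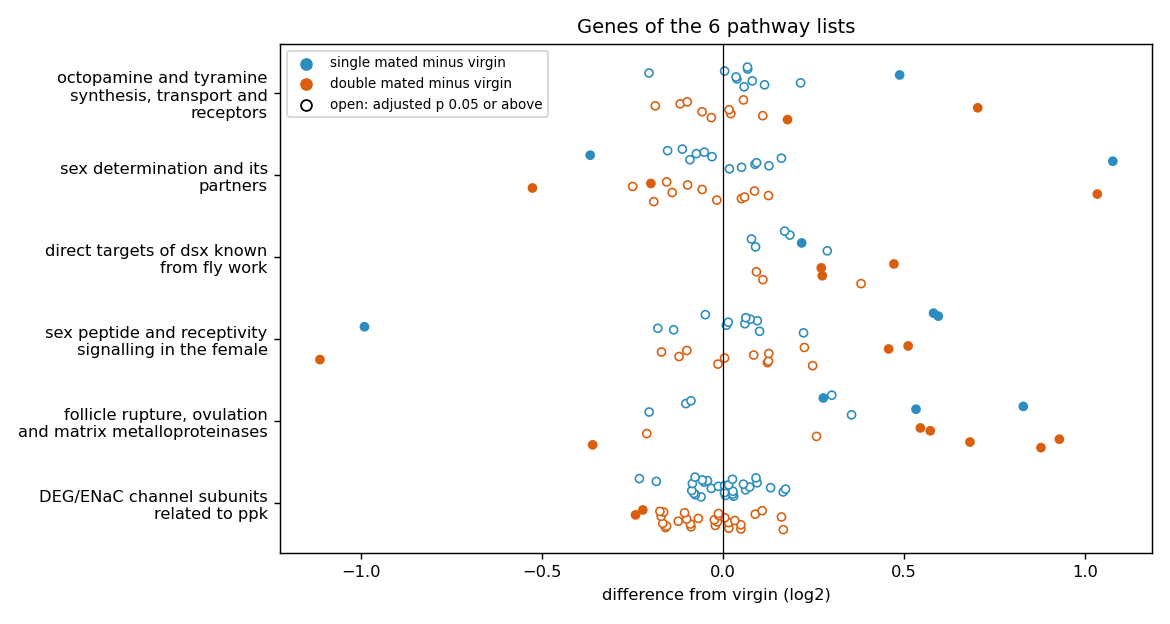
Differences from virgin on the log2 scale for every measured gene of the 6 lists, 1 point a gene and comparison, where filled points passed an adjusted p of 0.05 in limma. The points farthest to the left are Ilp7, and those farthest to the right in the sex-determination row are dsx. The DEG/ENaC points, most of them from dim probe sets, crowd around 0.

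The genes whose pattern was most like each member that changed were taken by Pearson correlation over the 12 arrays, among 11982 genes. The 12 points fall into 3 groups, so the values carry the group differences and no p is given. The genes were picked on these same arrays, so values with group means removed are raised by that choice and are descriptions only. For dsx they were Elal (r = 0.984), su(r), which encodes an enzyme of pyrimidine breakdown (0.980), and Cipc (0.979). With group means removed the values were 0.84, 0.92 and 0.78. For Mmp2 they were the T-box gene mid (0.975), tj, a transcription factor gene of somatic gonad cells (0.967), and CG31869 (0.965), with 0.91, 0.88 and 0.81 once group means were removed. For SPR they were Ogdh, a subunit of the oxoglutarate dehydrogenase complex (0.936), Cipc (0.924) and the opsin gene Rh7 (0.922), with 0.84, 0.59 and 0.78. Cipc was on the lists of both dsx and SPR. Rh7 rose by 0.28 after 1 mating (adjusted p = 0.0217 in limma). With the mean over its probe sets that change was 0.09 (adjusted p = 0.43).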

How the data were processed

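The deposited values are log2 expression values, 1 per probe set and array. RMA and the affy package made them, per the submitters' processing notes, and RMA includes background correction and quantile normalization. Versions were not given in the sources used here. Of 18952 probe sets, 183 Affymetrix controls were left out and 18769 were tested without a filter. The annotation gave 1 symbol to 13647, several to 402 and none to 4720. Names were updated by gene identifier against RefSeq genes of assembly Release 6.

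Group means were fitted to all 12 arrays with limma 3.58.1 (lmFit, eBayes) in R 4.3.3, with contrasts between the 3 groups and an F test. The fit was tested on simulated data. Beside the 8 genes, up to 4 genes of each list were named by the smallest p of the F test, and the 3 genes most like each called member. The members and lists were chosen with earlier results of these data known. Gaps within groups of 4 arrays were tested by Dixon's rule. Labels share replicate numbers 1 to 4 across groups without a stated meaning. Alternatives were a replicate block, array weights, filters on dim probe sets, cyclic loess, median-centred arrays, an intensity trend with a robust prior, the mean over the probe sets of a gene, the 8 arrays compared alone, a threshold of 0.01 and leaving out each array. Those for list genes, for further probe sets and for differences between probe sets were added after the data were seen.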

Additional observations from a re-analysis of the deposited data

Results flagged for a closer look

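In 5 of the 21 groups of 4 arrays (7 genes in 3 groups), 1 array stood apart from the other 3 by a gap that, as a share of the group's range, passed Dixon's 95% critical value; chance flags about 1 group in 20. For SPR these were virgin replicate 4, the highest of its group at 7.52 (next 7.23), and single mated replicate 1, the lowest of its group at 7.60 (next 7.95). Without the first, the SPR change after 1 mating was 0.67 (adjusted p = 0.00165 in limma), and without the second 0.69 (adjusted p = 0.00071). For Mmp2 virgin replicate 2 was highest at 6.35 (next 6.20), and without it the changes were 0.57 (adjusted p = 0.00589) and 0.72 (adjusted p = 0.000254). For ppk virgin replicate 3 was lowest at 3.52 (next 3.63) and double mated replicate 1 highest at 3.81 (next 3.62). The 5 flags fell on 5 different arrays.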

How the results depend on the processing

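The calls of dsx, Mmp2 and SPR against virgins were kept under every alternative run, except that of SPR in double mated females with the mean over probe sets (0.09, adjusted p = 0.371). In each comparison with virgins 3 of 7 genes were called under the alternatives run, with these exceptions. After 1 mating the count was 4 of 7 without single mated replicate 3, where Tdc2 passed, and after 2 matings 4 of 7 with centred arrays, where Tdc2 passed, and 2 of 7 with the mean over probe sets. The filters left fewer genes in the test: above the median level 4 of 4 were called after 1 mating, with fru, and 3 of 4 after 2, and above 5 on at least 4 arrays 3 of 6 were called in both. Between the mated groups 0 were called under every alternative. Directions turned for small differences that were never called. With centred arrays ppk became -0.0296 and -0.0181 and Tbh -0.0231 and -0.0511 in single and double mated females against virgins. Cyclic loess gave Tbh -0.00095 after 1 mating and 0.00767 between the mated groups. Array weights gave 0.0424 for dsx and 0.0504 for Tbh between the mated groups. When each array was left out in turn, ppk ran from -0.0027 to 0.0469 after 1 mating, -0.0013 to 0.0728 after 2 and -0.0309 to 0.0524 between the mated groups. Tbh ran from -0.0487 to 0.103, -0.0681 to 0.107 and -0.0952 to 0.0706. Between the mated groups dsx ran from -0.107 to 0.0287 and Tdc2 from -0.0373 to 0.0963. The cause was not tested.

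Over all probe sets, 1813 were called after 1 mating, 2953 with array weights, 606 at an adjusted p under 0.01 and 857 to 2698 with an array left out (1159 without virgin replicate 1, 883 without virgin replicate 3, 857 without single mated replicate 4). Between the mated groups 992 were called, 661 with the replicate block, 2195 with array weights, 307 at 0.01, 550 within the 8 arrays compared and 527 to 2171 with an array left out (2171 without double mated replicate 4). Same-numbered arrays of different groups had correlations of -0.264 to 0.143 between their deviations from the group means, with 1 of 12 above 0.1, so the numbers were not taken as pairs. With the replicate block no call of the 7 genes changed. Leaving out an array or cyclic loess moved the differences between probe sets by less than their spread. The deposited values give no signal over background, which limits what can be said of dim probe sets such as that of ppk.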
